A study of Mus musculus with 2 samples.

Results

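The genes described here are 10 antimicrobial and acute-phase genes, chosen by symbol: Reg3b, Reg3g, Lcn2, Saa1, Lrg1, Gp2, Chit1, Dmbt1, Lypd8 and Pigr. All 10 were present, once each, among the 31053 genes of the deposited matrices. Colonic crypts were taken from C57BL/6 mice at an age of 4 weeks, and the RNA of their isolated cells was sequenced cell by cell with the 10x Genomics droplet method. The Mettl14_cKO mice, written M14(f/f);Villin-Cre in the labels, had floxed alleles of Mettl14, a gene for 1 component of the enzyme that writes m6A on RNA, and a Cre recombinase under the Villin promoter, active in gut epithelium. The floxed control mice, M14(f/f), had the same floxed alleles and no Cre named in the labels. For either genotype the cells of 3 mice went into 1 pooled library, so no test was possible, and every interval below is a 95% interval that covers counting error only.

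The colonic epithelium keeps bacteria away from its surface with mucus, secreted lectins and small secreted proteins, and with immunoglobulin A that epithelial cells carry into the lumen. Many of the genes that encode these proteins are transcribed more strongly when immune cells release interleukin-22, interleukin-17 or interleukin-6, which act through STAT3 and NF-kB. Acute-phase proteins are best known from the liver, and several of them are also made by the inflamed gut and by neutrophils.

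After filtering, 7078 Mettl14_cKO and 9083 control cells remained, with medians of 6258 and 10043 UMIs per cell, and 6054 and 8712 of them were epithelial-like. Clusters were named by marker genes. In 14 of the 19 epithelial clusters 1 library supplied 90% or more of the cells, and these clusters held 81.8% of the epithelial-like cells. The classes therefore rest on different clusters in each library: for colonocyte-like cells clusters 7 and 15 in Mettl14_cKO and 7 and 10 in the control, for cycling-like cells 5 and 6 against 2, 4 and 5, and for goblet-like cells 1 and 3 against 0, 9 and 16. Enteroendocrine-like cells came from clusters 14 and 22 in both libraries. T or NK-like cells came from clusters 13 and 18 in Mettl14_cKO (175 and 218 cells) and almost only from cluster 13 in the control (352 cells). Their levels therefore rest on a different mix of clusters in each library. Immune cells were uneven as well, with 393 and 356 T or NK-like cells, 437 and 10 myeloid-like cells, and 175 and 3 B or plasma-like cells in Mettl14_cKO and control. The libraries also differed in Xist (338 CPM in Mettl14_cKO, 0.0629 CPM in the control) and in the sum of 4 Y-linked genes (0.0780 and 104 CPM), so genotype, sex of the mice and library cannot be told apart in any comparison below. Mettl14 had 418 UMIs, or 5.07 CPM, in Mettl14_cKO epithelial-like cells and 515 UMIs, or 4.76 CPM, in control ones, a ratio of 1.06 (0.932 to 1.21). The sources used here do not name the floxed exon, so neither the deletion nor the labels can be checked with this value.

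Promoter sequence was available from RefSeq for 9 of the 10 genes, as windows of 300 bases from 250 bases before to 50 bases after a transcription start (GRCm38.p6); Dmbt1 is the other. The windows of Reg3b and Reg3g are shown because both genes were higher in the same Mettl14_cKO classes, and those of Gp2 and Chit1 because both were at or near 0 in the control. They lie at chr6:78370635-78370934 on the plus strand (Reg3b), chr6:78468825-78469124 on the minus strand (Reg3g), chr7:119459223-119459522 on the minus strand (Gp2) and chr1:134110992-134111291 on the plus strand (Chit1). All are printed 5′ to 3′ along the gene. Capitals mark matches to 4 motifs searched on both strands: TTCNNNGAA for STAT factors, GGG and CC with 5 free bases between them for NF-kB, TTGCNNAA for C/EBP, and GAAA repeated after 2 free bases for the interferon-stimulated response element. Each window printed holds at most 1 match, so no matches overlap.
Reg3b: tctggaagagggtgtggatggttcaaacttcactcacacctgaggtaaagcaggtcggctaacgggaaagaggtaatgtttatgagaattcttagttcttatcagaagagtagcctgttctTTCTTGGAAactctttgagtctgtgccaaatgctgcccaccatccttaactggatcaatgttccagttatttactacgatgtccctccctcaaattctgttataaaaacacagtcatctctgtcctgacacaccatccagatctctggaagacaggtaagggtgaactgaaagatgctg
Reg3g: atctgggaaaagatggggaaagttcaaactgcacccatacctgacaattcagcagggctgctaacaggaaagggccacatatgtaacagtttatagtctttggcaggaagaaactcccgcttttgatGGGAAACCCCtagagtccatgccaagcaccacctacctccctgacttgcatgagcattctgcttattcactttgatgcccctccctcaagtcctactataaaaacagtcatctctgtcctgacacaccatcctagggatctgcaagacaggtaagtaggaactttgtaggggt
Gp2: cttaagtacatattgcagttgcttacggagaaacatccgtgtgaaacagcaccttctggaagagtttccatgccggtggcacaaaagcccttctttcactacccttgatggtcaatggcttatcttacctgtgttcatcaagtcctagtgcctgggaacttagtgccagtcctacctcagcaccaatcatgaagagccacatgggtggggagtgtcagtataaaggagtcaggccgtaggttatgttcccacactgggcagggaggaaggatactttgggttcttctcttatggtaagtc
Chit1: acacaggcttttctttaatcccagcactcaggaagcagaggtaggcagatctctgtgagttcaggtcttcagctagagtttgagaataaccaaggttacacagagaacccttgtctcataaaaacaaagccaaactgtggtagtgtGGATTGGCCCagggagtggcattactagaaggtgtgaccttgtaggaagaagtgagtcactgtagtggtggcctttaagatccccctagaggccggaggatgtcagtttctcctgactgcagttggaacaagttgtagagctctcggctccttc

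The Reg3b window held 1 STAT match, TTCTTGGAA, which began 129 bases before the RefSeq start at chr6:78370885. The GENCODE position of the gene, given below, begins earlier, at 78370657, so the match lies inside it. The Reg3g window held 1 NF-kB match, GGGAAACCCC, 123 bases before the start, and no STAT match. Reg3b and Reg3g shared an unbroken run of 29 bases, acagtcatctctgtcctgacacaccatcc, whereas the longest run shared by any of the other 35 pairs of windows was between 7 and 10 bases. The Chit1 window held 1 NF-kB match on the opposite strand, printed as GGATTGGCCC, 104 bases before the start, and the Gp2 window held no match to any of the 4 motifs. Over the 9 genes the STAT motif was found in 2 (Reg3b and Pigr), the NF-kB motif in 7, the C/EBP motif in 2 (Lcn2 and Saa1) and the interferon-stimulated response element in 0. Over 32851 RefSeq promoter windows of the same length the shares with a match were 8.30%, 50.8%, 10.8% and 3.44%, in the same order. A match is a run of letters and not a measured binding site.

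Reg3b and Reg3g, C-type lectins that bind bacteria and are secreted by gut epithelium, were higher in Mettl14_cKO than in control cycling-like and goblet-like cells. Reg3b (ENSMUSG00000071356, chr6:78370657-78373466, plus strand; all gene positions are from GENCODE M21 on GRCm38, and the sources used here do not name the build behind the counts) had 4229 CPM (4205 to 4252) in Mettl14_cKO and 889 CPM (880 to 899) in control cycling-like cells, which was 4.75-fold higher (4.70 to 4.81). In goblet-like cells Reg3b had 883 and 122 CPM, 7.24-fold higher (6.99 to 7.49). Colonocyte-like cells held its highest class level in both libraries, 7937 and 5374 CPM, a ratio of 1.48 (1.46 to 1.49). That ratio rested on few cells, since 33 Mettl14_cKO cells of cluster 7 held 19449 of the 36663 Reg3b UMIs of the class. In the other main colonocyte-like clusters, 15 in Mettl14_cKO and 10 in the control, Reg3b had 3680 and 3765 CPM, whereas in the control-majority clusters of the class, described below, it was 5.95-fold higher (5.87 to 6.04). Enteroendocrine-like cells went the other way, with 245 CPM in Mettl14_cKO and 600 CPM in the control, 2.45-fold higher in the control (2.21 to 2.72), although the log2 ratio was 0.25 when no doublets were removed.

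Reg3g (ENSMUSG00000030017, chr6:78466269-78468872, minus strand) had 2195 and 448 CPM in Mettl14_cKO and control cycling-like cells, 4.90-fold higher (4.81 to 4.98). Goblet-like cells had 1780 CPM (1766 to 1794) and 87.8 CPM (84.5 to 91.3), 20.3-fold higher (19.5 to 21.1). The order of classes therefore differed between the libraries: Reg3g was highest in cycling-like cells of Mettl14_cKO, just above its colonocyte-like level of 1891 CPM, and highest in colonocyte-like cells of the control, at 1903 CPM. The interval of the colonocyte-like ratio, 0.994, covered no difference (0.971 to 1.02), but in the control-majority clusters of that class, described below, Reg3g was 2.62-fold higher in Mettl14_cKO (2.53 to 2.71). In enteroendocrine-like cells Reg3g had 193 and 223 CPM, 1.15-fold higher in the control (1.01 to 1.32), although the intervals of the levels overlapped. Over the other processing settings that log2 ratio ran from -0.68 to 0.55. T or NK-like cells, not known to make either lectin, held Reg3b at 124 and 368 CPM and Reg3g at 111 and 128 CPM in Mettl14_cKO and control. In CPM, Reg3b in control goblet-like cells lay below the T or NK-like level, and in enteroendocrine-like cells of both libraries less than 2 times above it. T or NK-like cells were shallower, so the same CPM stands for fewer UMIs per cell there. Per cell Reg3b had 1.34 and 5.76 UMIs in Mettl14_cKO and control enteroendocrine-like cells and 1.45 in control goblet-like cells. T or NK-like cells had 0.316 and 0.742.

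**Figure D1:**
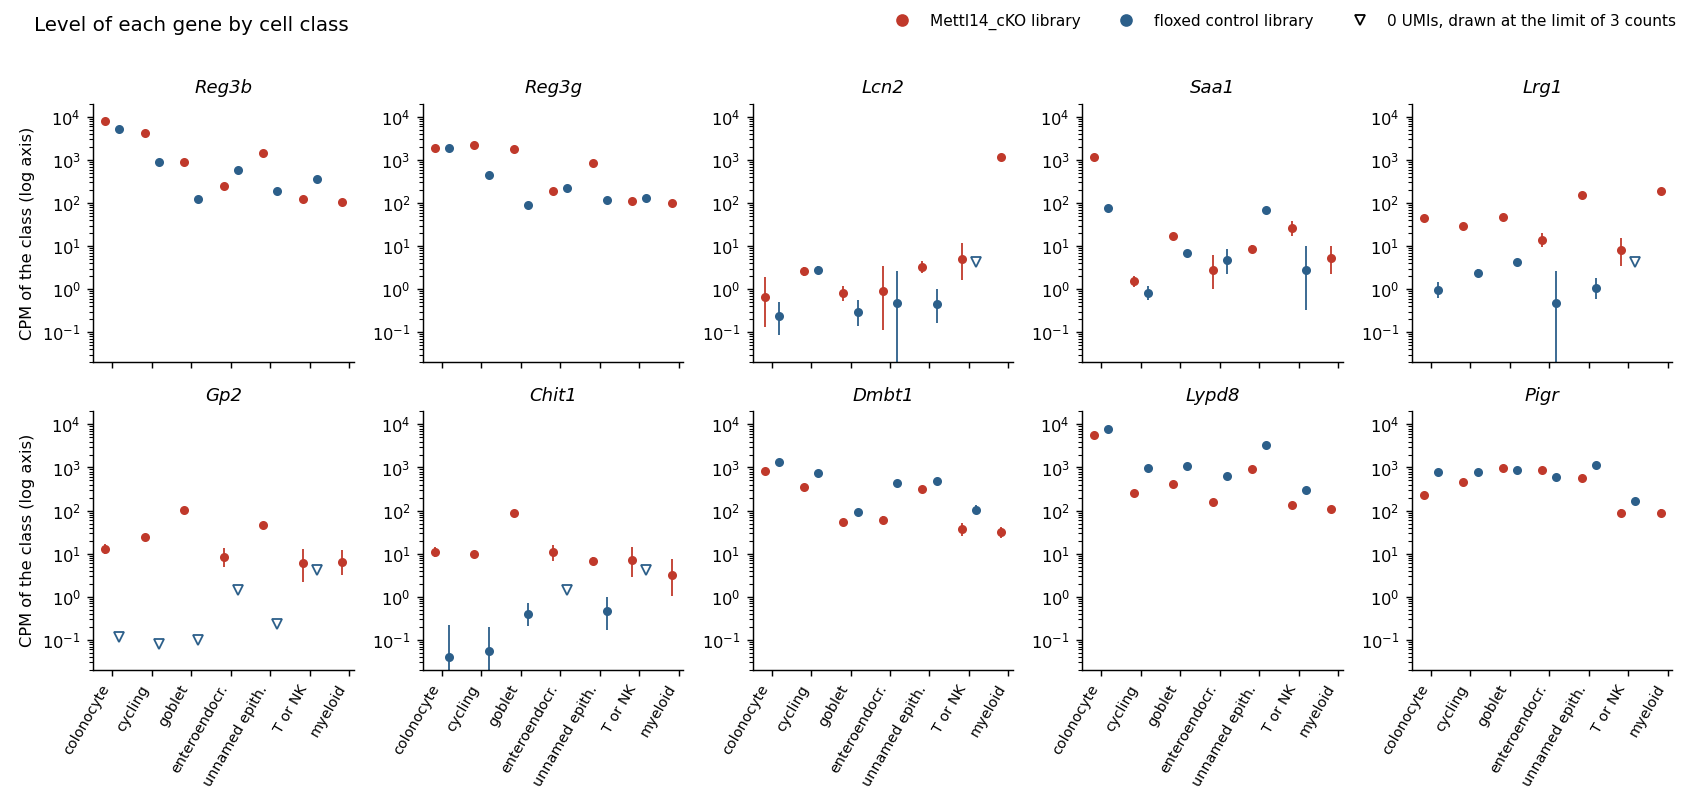
Level of each of the 10 genes in each cell class, in CPM of the class on a log axis, for Mettl14_cKO (left of each pair) and control, with 95% counting intervals and open triangles at the limit of 3 counts where no UMI was found (control myeloid-like cells, 10 in all, are not drawn). Reg3b and Reg3g stand higher in Mettl14_cKO cycling-like and goblet-like cells (Reg3b 4229 against 889 CPM in cycling-like cells), Gp2 has open triangles in every control class, and Lcn2 stands out only in Mettl14_cKO myeloid-like cells at 1175 CPM.

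Gp2 (ENSMUSG00000030954, chr7:119442537-119459285, minus strand), a membrane-anchored glycoprotein that binds type 1 fimbriae of bacteria and is known from M cells and pancreas, was found in 1 library only. The kept cells held 4852 Gp2 UMIs in Mettl14_cKO and 0 in the control. Goblet-like cells had 104 CPM (101 to 108) in Mettl14_cKO from 3477 UMIs, at least 1038-fold higher than the control at a floor of 3 counts for the class. Cycling-like cells had 23.9 CPM from 705 UMIs (at least 294-fold higher), colonocyte-like cells 12.99 CPM from 60 UMIs (at least 111-fold) and enteroendocrine-like cells 8.41 CPM from 18 UMIs (at least 6.00-fold). Mettl14_cKO T or NK-like cells held 6 Gp2 UMIs, or 6.01 CPM (2.21 to 13.1), an interval that overlapped those of the colonocyte-like and enteroendocrine-like levels. The highest cluster level, 179 CPM, was not in goblet-like cells but in cluster 20, an unnamed epithelial cluster of 209 Mettl14_cKO cells and 0 control cells. Cluster 20 also held 4845 CPM of Ccl20, 281 of Spib, 250 of Marcksl1, 87.9 of Tnfaip2 and 62.9 of Sox8, which are 5 of the 8 M cell markers searched and were among its 50 leading genes.

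Chit1 (ENSMUSG00000026450, chr1:134111242-134151540, plus strand), which encodes the chitinase chitotriosidase, had 3390 UMIs in the kept Mettl14_cKO cells and 21 in the kept control cells. Goblet-like cells held 86.1% of the Mettl14_cKO UMIs. The level there was 87.4 CPM (84.3 to 90.6) in Mettl14_cKO and 0.401 CPM (0.207 to 0.701) from 12 UMIs in the control, 218-fold higher (125 to 422). Clusters 1 and 3, which make up nearly all Mettl14_cKO goblet-like cells, had similar levels of 92.6 and 95.3 CPM. Elsewhere Chit1 was low: 11.04 and 0.0389 CPM in colonocyte-like cells, 9.67 and 0.0540 CPM in cycling-like cells, and 10.8 and 0 CPM in enteroendocrine-like cells, where the control values rest on 1, 2 and 0 UMIs. Myeloid-like cells of Mettl14_cKO held 5 UMIs, or 3.27 CPM, T or NK-like cells 7 UMIs, or 7.01 CPM (2.82 to 14.4), and B or plasma-like cells 8 UMIs, or 13.2 CPM (5.71 to 26.1). The gene was thus not concentrated in immune cells of this library. The T or NK-like interval overlapped those of colonocyte-like (8.22 to 14.5), cycling-like (8.58 to 10.9) and enteroendocrine-like cells (6.81 to 16.1). Outside goblet-like cells Chit1 therefore did not stand clear of the T or NK-like level in CPM.

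Lypd8 (ENSMUSG00000013643, chr11:58379043-58390728, plus strand), a GPI-anchored protein that is shed from the surface of the colon and binds flagellated bacteria, was lower in Mettl14_cKO in each of the 4 epithelial classes. Colonocyte-like cells had 5809 CPM (5740 to 5879) in Mettl14_cKO and 7992 CPM (7957 to 8026) in the control, 1.38-fold higher in the control. Outside colonocyte-like cells the difference was larger. Cycling-like cells had 258 and 955 CPM (3.70-fold higher in the control, 3.61 to 3.79), goblet-like cells 404 and 1067 CPM (2.64-fold, 2.59 to 2.69) and enteroendocrine-like cells 157 and 651 CPM (4.13-fold, 3.67 to 4.67). T or NK-like cells had less of it as well, 136 and 308 CPM, and their part in the enteroendocrine-like and cycling-like values was not tested. The Mettl14_cKO value mixes cluster 13, at 216 CPM (179 to 257), and cluster 18, at 32.4 CPM, while control cluster 13 had 308 CPM (269 to 352).

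Dmbt1 (ENSMUSG00000047517, chr7:131032053-131121630, plus strand), a large secreted scavenger receptor protein that binds bacteria and mucins, was also lower in each class, except under 2 other settings. In cycling-like cells its log2 ratio was 0.25 with these genes among the variable genes, and in control-majority clusters, described below, the same class had 0.37, goblet-like cells 0.45 and colonocyte-like cells 0.15. It had 830 and 1329 CPM in Mettl14_cKO and control colonocyte-like cells (1.60-fold higher in the control, 1.55 to 1.66), with cycling-like cells at 354 and 753 CPM (2.12-fold, 2.08 to 2.17). Goblet-like cells had 54.6 and 94.6 CPM, and T or NK-like cells 37.1 and 106 CPM. In CPM the control goblet-like level therefore did not stand above that of T or NK-like cells. Per cell it did, with 1.12 Dmbt1 UMIs in control goblet-like cells and 0.213 in the shallower control T or NK-like cells. The widest gap was in enteroendocrine-like cells, with 61.7 and 429 CPM, 6.96-fold higher in the control (5.79 to 8.42). Both clusters of that class showed it, cluster 14 with 53.9 and 408 CPM and cluster 22 with 76.6 and 467 CPM.

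Saa1 (ENSMUSG00000074115, chr7:46740497-46742980, minus strand), an acute-phase apolipoprotein that carries retinol and is induced by bacteria in gut epithelium, was higher in Mettl14_cKO colonocyte-like cells. It had 1156 CPM (1126 to 1188) there and 75.7 CPM (72.4 to 79.1) in control colonocyte-like cells, 15.3-fold higher (14.5 to 16.1). Cluster 15 alone held 85.0% of the Mettl14_cKO Saa1 UMIs, with 1325 CPM, against 148 CPM in control cluster 10 and 15.6 CPM in control cluster 7. In unnamed epithelial cells the difference had the opposite sign, with 8.74 CPM in Mettl14_cKO and 68.1 CPM in the control, 7.79-fold higher in the control (6.39 to 9.59). Goblet-like cells had 17.3 and 7.05 CPM (2.45-fold higher, 2.09 to 2.89), but in control-majority clusters the goblet-like log2 ratio was -1.78. Mettl14_cKO T or NK-like cells had 26.0 CPM from 26 UMIs, above the goblet-like value in CPM. Per cell the order was the other way, with 0.243 Saa1 UMIs in Mettl14_cKO goblet-like and 0.0662 in T or NK-like cells. Reads of Saa1 and its neighbour Saa2 may be shared in part, since 14 of the 441 words of 60 bases in the last 500 bases of Saa1 transcripts also occur in Saa2 transcripts.

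Lrg1 (ENSMUSG00000037095, chr17:56119678-56122001, minus strand), a leucine-rich glycoprotein of the acute phase that is also stored in neutrophil granules, was higher in Mettl14_cKO in all 4 classes. Colonocyte-like cells had 44.6 CPM (38.7 to 51.1) in Mettl14_cKO and 0.974 CPM (0.630 to 1.44) in the control, 45.8-fold higher (30.2 to 72.4). Goblet-like cells had 46.6 and 4.21 CPM (11.1-fold, 9.23 to 13.4), cycling-like cells 28.7 and 2.41 CPM (11.9-fold, 9.57 to 14.99), and enteroendocrine-like cells 14.02 and 0.467 CPM, a ratio of 29.98 (4.98 to 1223) that rests on 1 control UMI. In unnamed epithelial cells the level was 154 CPM against 1.07 CPM, 144-fold higher (85.7 to 264). T or NK-like cells held 8 Lrg1 UMIs in Mettl14_cKO, or 8.01 CPM, and 0 in the control. Myeloid-like cells of Mettl14_cKO had 193 CPM, so epithelial-like and myeloid-like cells both contributed Lrg1.

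Lcn2 (ENSMUSG00000026822, chr2:32384633-32388252, minus strand), lipocalin 2, which withholds iron from bacteria by binding their siderophores, was low in the epithelial-like cells of both libraries, and its Mettl14_cKO counts go against calling it epithelial there. Myeloid-like cells held 1799 of the 1956 Lcn2 UMIs of the kept Mettl14_cKO cells (92.0%). Cluster 19, with 9 of the 12 neutrophil markers searched among its 50 leading genes, had 3167 CPM, and cluster 17, with 4 of the 9 macrophage markers, had 333 CPM. In epithelial-like classes the level was at or below 3.34 CPM: cycling-like cells had 2.60 and 2.81 CPM in Mettl14_cKO and control, from 77 and 104 UMIs, a ratio of 0.927 (0.681 to 1.26). That ratio depended on the clusters compared: Lcn2 was 4.92-fold higher in Mettl14_cKO (3.45 to 6.94) in cycling-like cells of the control-majority clusters described below, and in one of them, cluster 4, it had 14.2 and 4.38 CPM. Mettl14_cKO T or NK-like cells had 5.01 CPM of Lcn2 (1.63 to 11.7) from 5 UMIs, and control ones 0. That interval overlapped the Mettl14_cKO interval of cluster 4 (9.56 to 20.2). Per cell T or NK-like cells held 0.0127 Lcn2 UMIs, against 0.0444 in Mettl14_cKO cycling-like cells, and their part in these values was not tested. Goblet-like cells had 0.808 and 0.301 CPM, and colonocyte-like cells 0.650 and 0.234 CPM from 3 and 6 UMIs. The kept cells of the control library held 126 Lcn2 UMIs, of which 104 were in cycling-like cells, and its 10 myeloid-like cells held 0.

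Neutrophil markers were present at a low level in the epithelial-like classes of Mettl14_cKO. Summed over 12 markers they reached 367 and 1.05 CPM in Mettl14_cKO and control colonocyte-like cells, 37.1 and 0.324 CPM in cycling-like cells, 19.1 and 0.869 CPM in goblet-like cells and 49.5 and 1.40 CPM in enteroendocrine-like cells. Most of the colonocyte-like sum was S100a8, at 334 and 0.0389 CPM, while Csf3r, Mmp9, Clec4d and Stfa2l1 were at 0 in Mettl14_cKO colonocyte-like cells. Lcn2, which cluster 19 carried at 3167 CPM, was at 0.650 CPM in the same colonocyte-like cells, and Lrg1, at 514 CPM in cluster 19, was at 44.6 CPM in them. Macrophage markers summed to 12.6 and 7.48 CPM in colonocyte-like cells, 15.1 and 30.1 CPM in cycling-like cells, 40.6 and 48.6 CPM in goblet-like cells, and 20.6 and 22.4 CPM in enteroendocrine-like cells.

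Pigr (ENSMUSG00000026417, chr1:130826684-130852249, plus strand), the receptor that carries polymeric immunoglobulin A across the epithelium, differed in sign between classes. Colonocyte-like cells had 232 CPM (218 to 246) in Mettl14_cKO and 791 CPM (780 to 802) in the control, 3.42-fold higher in the control (3.21 to 3.64), with a log2 ratio of 0.10 in control-majority clusters. Cycling-like cells had 459 and 803 CPM (1.75-fold higher in the control). Goblet-like cells had nearly equal levels, 975 and 879 CPM (1.11-fold higher in Mettl14_cKO, 1.09 to 1.13), and enteroendocrine-like cells had 895 and 609 CPM (1.47-fold higher, 1.37 to 1.58). Within Mettl14_cKO the lowest level over the 4 classes was in colonocyte-like cells, and T or NK-like cells had 89.1 and 163 CPM.

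Counts of these genes were set against all genes with a mean of at least 5 CPM over both libraries in a class, where a gene past 2-fold on log2(CPM + 1) was counted as higher or lower. In cycling-like cells 7 of the 10 genes passed that filter: Reg3b, Reg3g, Lrg1 and Gp2 were at least 2-fold higher in Mettl14_cKO (6.55% of 8980 genes were), Dmbt1 and Lypd8 were lower (4.87% of genes were) and Pigr lay between, while Lcn2, Saa1 and Chit1 did not pass. In goblet-like cells the 9 other than Lcn2 passed, of which Reg3b, Reg3g, Saa1, Lrg1, Gp2 and Chit1 were higher (5.99% of 8712 genes) and Lypd8 was lower (6.13%). In colonocyte-like cells the same 9 passed, of which Saa1, Lrg1, Gp2 and Chit1 were higher (9.4% of 8116 genes) and Pigr was lower (8.44%). In enteroendocrine-like cells the 7 other than Lcn2, Saa1 and Gp2 passed, of which Lrg1 and Chit1 were higher (12.2% of 9977 genes) and Reg3b, Dmbt1 and Lypd8 were lower (7.35%). Gp2, Chit1 and Lrg1 passed through their Mettl14_cKO level alone, since their control level was below 5 CPM in each of the 4 classes. With control levels that low, passing the filter by itself placed Gp2 and Chit1 past 2-fold, and Lrg1 outside goblet-like cells. Their place among the higher genes was therefore set by the filter, and partly so for Lrg1 in goblet-like cells. The medians that follow include these genes and share this limit. In Mettl14_cKO, the intervals of Gp2 and Chit1 in colonocyte-like cells, and of Lrg1 and Chit1 in enteroendocrine-like cells, overlapped the T or NK-like ones. The median log2 ratios of the genes that passed were 2.25, 2.84, 0.56 and -0.20 in the order of classes just given, beside -0.03, -0.08, -0.12 and 0.14 over all genes tested. Genes with 0 control UMIs lay above these medians both on that scale and at their lower bound.

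**Figure D2:**
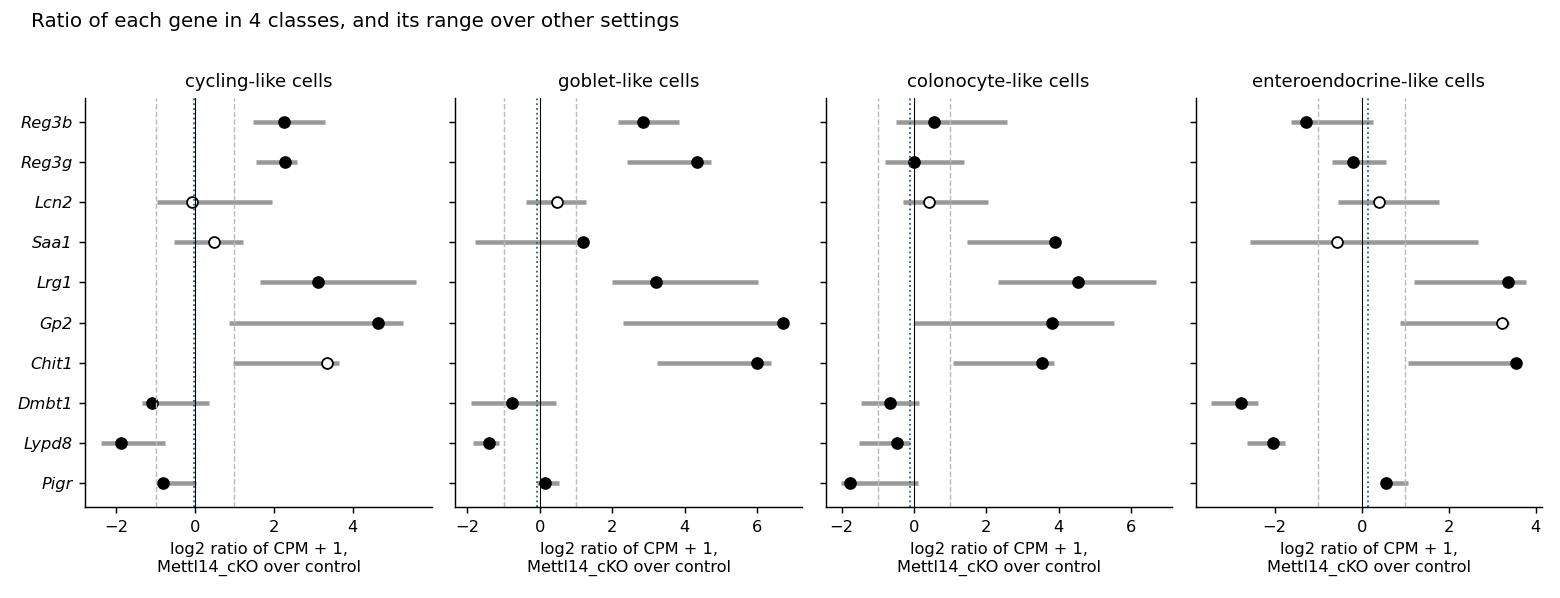
Log2 ratio of CPM + 1, Mettl14_cKO over control, for each gene in 4 classes (points), with the range over the other processing settings as lines. Reg3g in goblet-like cells stands at 4.33 and Lypd8 at -1.40, and the line of Reg3b in colonocyte-like cells crosses 0, with a range from -0.50 to 2.57.

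Because most clusters belonged to 1 library, the genes were also compared inside the 6 epithelial clusters with at least 50 cells of each library. Cluster 4, cycling-like, held 71 Mettl14_cKO and 983 control cells. There Reg3b had 12360 and 1613 CPM (7.66-fold higher, 7.52 to 7.80), Reg3g 3395 and 769 CPM (4.42-fold) and Lrg1 145 and 0.292 CPM from 307 and 4 UMIs (497-fold, 192 to 1837), whereas Dmbt1 was nearly equal at 1118 and 1105 CPM (1.01-fold, 0.968 to 1.06). In cluster 4, 7 genes passed the filter, of which Reg3b, Reg3g, Lrg1 and Lcn2 were higher (1.31% of genes were) and 0 were lower (2.09%), but Lrg1 and Lcn2 passed through their Mettl14_cKO level alone. Cluster 9, goblet-like, held 53 and 876 cells. There 4 of the 7 that passed were higher (2.26% of genes) and 0 lower (4.66%), with Lrg1 and Chit1 passing through Mettl14_cKO alone: Reg3b had 1385 and 79.1 CPM (17.5-fold, 16.1 to 19.1), Reg3g 548 and 27.3 CPM (20.1-fold, 17.4 to 23.2), Lrg1 391 and 1.45 CPM (270-fold, 159 to 497) and Chit1 17.7 and 0.310 CPM from 23 and 3 UMIs (57.2-fold, 17.3 to 297). Lypd8 had 727 and 907 CPM in cluster 9, a much smaller gap than over the class.

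Cluster 8, unnamed epithelial, held 224 and 708 cells. Its Lrg1 level was 276 and 0.536 CPM (515-fold higher in Mettl14_cKO, 236 to 1405), and it held 39.1% of all Mettl14_cKO Lrg1 UMIs. Reg3b had 398 and 112 CPM, Saa1 7.35 and 79.6 CPM (10.8-fold higher in the control, 8.16 to 14.7), and Lypd8 1391 and 3817 CPM. By count, 3 of 7 genes were higher (6.71% of genes) and 3 lower (4.67%). In clusters 5, 8, 14 and 22 too, Lrg1, Gp2 and Chit1, where counted, passed the filter through Mettl14_cKO alone, and Saa1 in cluster 22 through the control alone. In cluster 5, cycling-like with 579 and 475 cells, 5 of 8 were higher (6.5% of genes) and Dmbt1 and Lypd8 lower (7.04%), at 379 and 1556 CPM and at 90.7 and 558 CPM. The enteroendocrine-like clusters 14 and 22 had 3 of 8 and 1 of 7 higher (17.3% and 9.22% of genes) and 3 of 8 and 3 of 7 lower (7.96% and 12.9%). Pigr was higher in both of them, with 849 and 623 CPM in cluster 14 and 982 and 585 CPM in cluster 22.

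**Figure D3:**
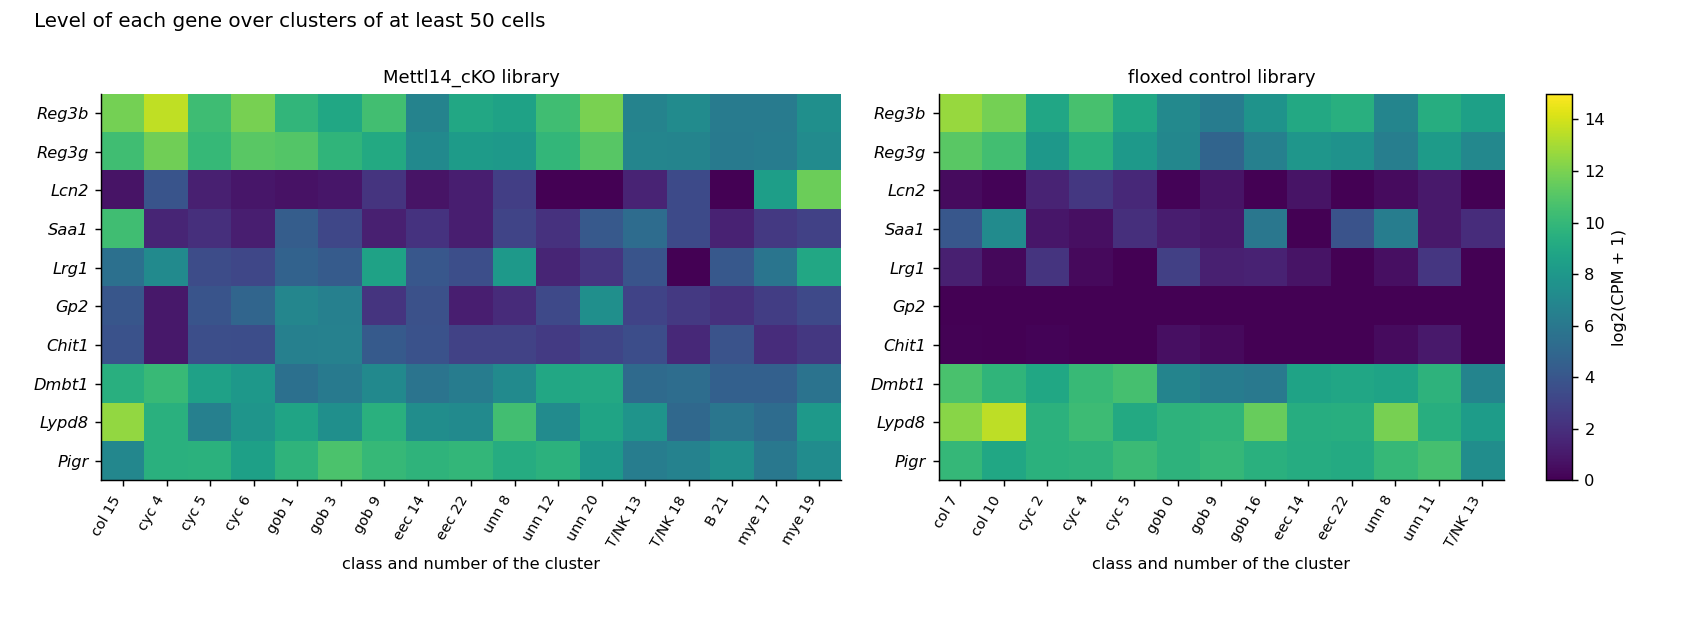
Level of each gene as log2(CPM + 1), shown by colour, over clusters of at least 50 cells, with Mettl14_cKO in the left panel and the control in the right, clusters labelled by class and number, and colour running from dark purple at 0 to yellow. Gp2 lies above 0 in Mettl14_cKO clusters, led by clusters 20 (179 CPM) and 1 (115 CPM), Saa1 peaks in colonocyte-like clusters 15 and 10, and Lcn2 in myeloid-like cluster 19.

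A small set of Mettl14_cKO cells fell into the 8 clusters in which at least 90% of epithelial cells were control cells. It held 285 Mettl14_cKO cells, 4.71% of that library's epithelial-like cells, with a median of 21031 UMIs, beside 7222 control cells with a median of 11036. Reg3b had 8470 and 1880 CPM in these Mettl14_cKO and control cells (4.51-fold higher), Reg3g 2136 and 733 CPM (2.92-fold), Lrg1 212 and 2.66 CPM (79.8-fold, 69.7 to 91.7) and Lcn2 8.51 and 1.27 CPM (6.72-fold, 4.82 to 9.27). That Lcn2 level of 8.51 CPM lay inside the interval of Mettl14_cKO T or NK-like cells (1.63 to 11.7). Gp2 had only 13 UMIs, or 1.91 CPM, in the 285 cells, against 74.4 CPM in the 4531 Mettl14_cKO cells of the 6 clusters made up of that library. Chit1 showed the same arrangement, with 5.87 CPM in the 285 cells and 50.6 CPM in the 4531. Lrg1 was arranged the other way, at 212 CPM in the 285 cells and 18.2 CPM in the 4531. The 285 Mettl14_cKO cells were nearly equal to the 7222 control cells in Dmbt1 (723 and 691 CPM) and Pigr (896 and 833 CPM). Saa1 was nearly equal as well (22.1 and 23.1 CPM), while Lypd8 stayed lower at 902 and 2929 CPM (3.25-fold higher in the control). These values pool classes of unlike size: colonocyte-like cluster 7 held 33 of the Mettl14_cKO and 920 of the control cells. Within a class Lypd8 was 1.95-fold higher in control colonocyte-like cells, 2.17-fold in goblet-like and 1.69-fold in cycling-like ones, each below the pooled 3.25-fold. Saa1 was 2.76-fold higher in Mettl14_cKO colonocyte-like cells and 5.32-fold higher in control goblet-like cells. These 285 cells were grouped by their likeness to control cells and had the higher depth, and the part of depth in their values was not tested.

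**Figure D4:**
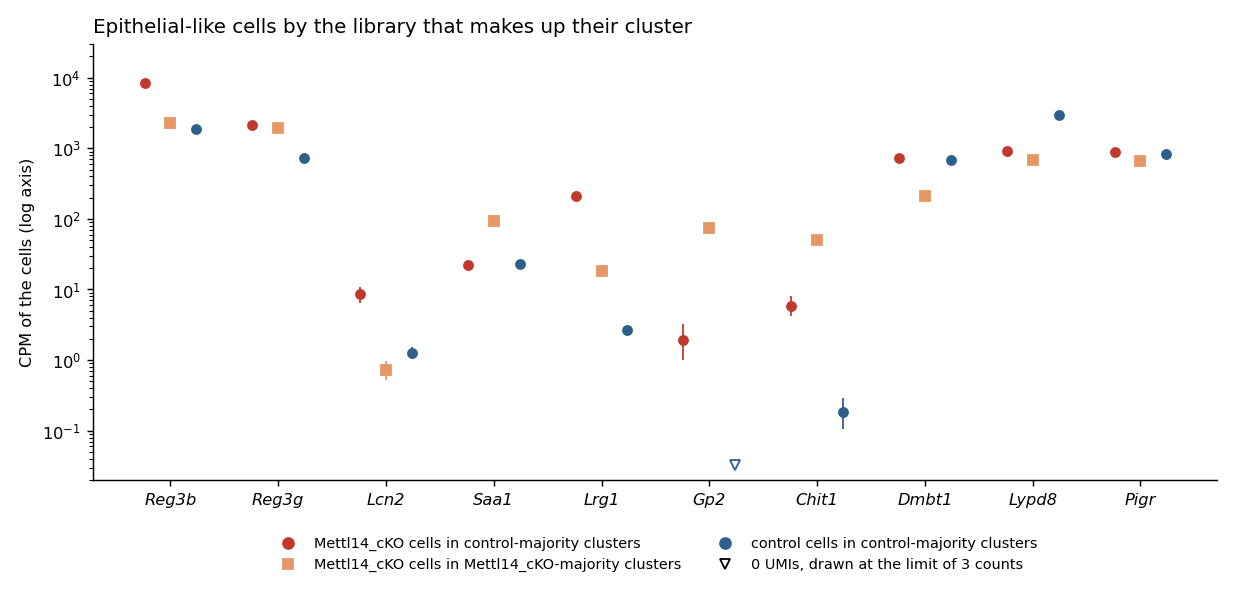
Level of each gene in CPM on a log axis for epithelial-like cells grouped by which library makes up their cluster. Lrg1 is higher in the 285 Mettl14_cKO cells of control-majority clusters (212 CPM) than in the 4531 cells of Mettl14_cKO-majority clusters (18.2 CPM), and Gp2 (1.91 against 74.4 CPM) and Chit1 (5.87 against 50.6 CPM) show the opposite order.

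Shares of cells with a UMI were compared after each cell was thinned to 1000 UMIs, beside the share in T or NK-like cells, which had medians of 1939 UMIs in Mettl14_cKO and 1624.5 in the control. The medians of the epithelial classes were 13384 and 11891 UMIs in cycling-like, 10770 and 11158.5 in goblet-like and 9535.5 and 11483 in colonocyte-like cells. Reg3g was found in 51.9% of Mettl14_cKO and 20.4% of control cycling-like cells and in 35.0% and 5.77% of goblet-like cells, beside 9.07% and 5.72% of T or NK-like cells. After thinning, the control goblet-like share was thus at the T or NK-like level. Thinning to 1000 UMIs keeps a smaller part of a deeper cell, so equal thinned shares do not show equal UMIs per cell. Control goblet-like cells held 1.04 Reg3g UMIs per cell and control T or NK-like cells 0.258. Without thinning, Reg3g was found in 84.9% and 56.9% of cycling-like and 66.7% and 27.3% of goblet-like cells, beside 21.4% and 13.2% of T or NK-like cells. Reg3b was found in 33.2% and 23.7% of cycling-like cells (62.2% and 55.9% unthinned), beside 16.6% and 16.3% of T or NK-like cells (24.7% and 30.6% unthinned). In goblet-like cells its thinned shares of 17.5% and 6.13% were near or below the thinned T or NK-like shares. Its CPM of 883 in Mettl14_cKO goblet-like cells was above the 124 CPM of T or NK-like cells. Per cell Reg3b had 12.4 and 1.45 UMIs in Mettl14_cKO and control goblet-like cells, against 0.316 and 0.742 in T or NK-like cells. Its colonocyte-like shares of 33.2% and 53.9% ran against its CPM, so no order was read from them.

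Gp2 was found in 199 of 2336 thinned Mettl14_cKO goblet-like cells, or 8.52% (7.42 to 9.73; 37.9% unthinned), and in 0 of 2512 control ones, where a limit of 3 counts allows up to 0.119% of thinned cells with a UMI. T or NK-like shares were 0.518% (0.0628 to 1.86; 1.53% unthinned) and 0 of 332 cells, which by the same limit allows up to 0.904%. Chit1 was found in 7.41% of Mettl14_cKO goblet-like cells (43.8% unthinned) and 0% of control ones (0.397% unthinned), beside 0.259% and 0% of T or NK-like cells (1.27% and 0% unthinned). Outside goblet-like cells the Gp2 share in cycling-like cells, 2.66% (1.96 to 3.53), lay above the T or NK-like interval, and the Chit1 share there, 1.10%, did not. Saa1 was found in 35.1% of Mettl14_cKO and 6.40% of control colonocyte-like cells (55.7% and 19.5% unthinned), against 0.777% and 0% of T or NK-like cells (1.27% and 0.562% unthinned). Lrg1 reached only 3.00% and 0.0561% of colonocyte-like and 2.83% and 0.239% of goblet-like cells, and no T or NK-like cell (of 386 and 332 thinned cells, which at 3 counts allows up to 0.777% and 0.904%) had a UMI (unthinned shares were 11.4% and 1.34%, 8.91% and 3.73%, and 0.254% and 0%).

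Lypd8 was found in 82.0% of Mettl14_cKO and 97.0% of control colonocyte-like cells, 13.3% and 48.1% of cycling-like cells, and 20.5% and 54.5% of goblet-like cells. T or NK-like cells had 4.92% and 24.7%, so the background of this gene was itself lower in Mettl14_cKO. Part of that gap is the mix of clusters: Lypd8 had 216 and 308 CPM in cluster 13 of Mettl14_cKO and control, and 32.4 CPM in Mettl14_cKO cluster 18. Unthinned shares were 96.2% and 99.7%, 46.9% and 90.2%, and 55.1% and 95.3% in the same classes, and 7.89% and 36.8% in T or NK-like cells. Pigr was found in 16.9% and 49.2% of colonocyte-like, 38.1% and 54.8% of cycling-like and 62.7% and 56.0% of goblet-like cells, beside 6.22% and 11.7% of T or NK-like cells (48.6% and 90.1%, 86.3% and 94.8%, 96.5% and 98.3%, and 13.2% and 21.6% unthinned). Relative to its epithelial-like level, the T or NK-like level in Mettl14_cKO was between 4.88% (Reg3b) and 35.3% (Saa1) for the 9 genes other than Lcn2, so that share was not the same for each gene. For Lcn2 it was 274%, from 5 T or NK-like UMIs.

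**Figure D5:**
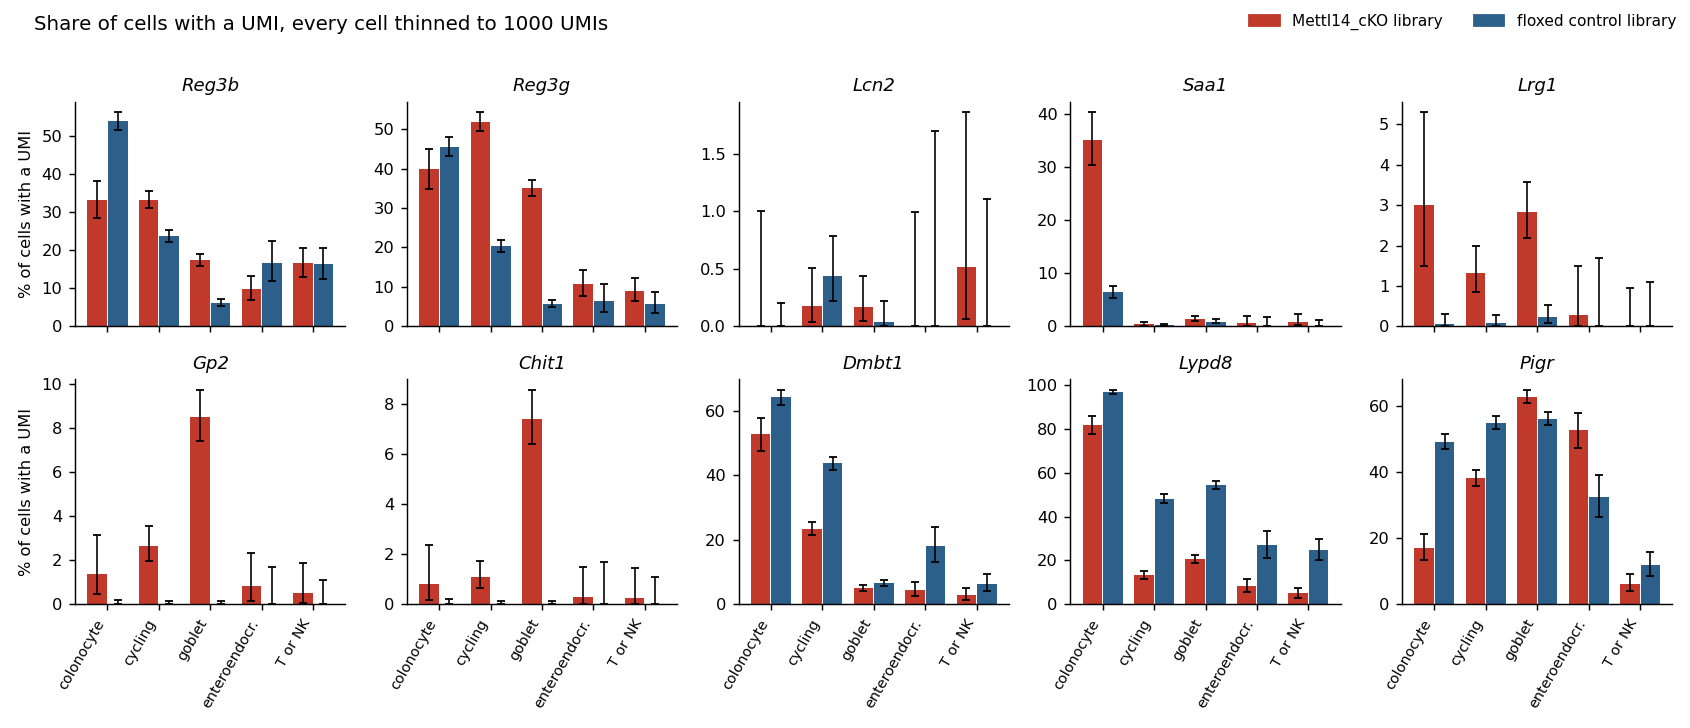
Percent of cells with at least 1 UMI of each gene after thinning every cell to 1000 UMIs, by class, Mettl14_cKO left of control in each pair, with exact binomial 95% intervals. Gp2 and Chit1 reach 8.52% and 7.41% of Mettl14_cKO goblet-like cells with 0 control cells, and the T or NK-like bars show the background, highest for Lypd8 in the control at 24.7%.

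Within cycling-like cells most Reg3b UMIs lay in a minority of cells, and Reg3g was spread more widely. After thinning to 2000 UMIs, at least 20 Reg3b UMIs were found in 141 of 1577 Mettl14_cKO cycling-like cells (8.94%) and 32 of 2278 control ones (1.40%). The 10% of cycling-like cells with most Reg3b held 77.6% and 80.1% of its UMIs. For Reg3g these shares were 52.7% and 70.1%, and it was found in 1062 of the 1577 Mettl14_cKO and 670 of the 2278 control cells. In colonocyte-like cells Reg3b was found in 128 of 338 Mettl14_cKO and 1018 of 1676 control cells. In goblet-like cells 60 Mettl14_cKO cells (2.86%) and 0 control cells had at least 20 Reg3g UMIs. Reg3b and Reg3g were found together: at the same 2000 UMIs per cell, 87.0% of Mettl14_cKO and 56.5% of control cycling-like cells with Reg3b also had Reg3g, against 53.7% and 17.8% of those without Reg3b. As a description over cells that share 1 library and class, their Spearman correlation was 0.558 and 0.477 in cycling-like, 0.577 and 0.690 in colonocyte-like and 0.378 and 0.167 in goblet-like cells. In Mettl14_cKO colonocyte-like cells Saa1 ran with Lypd8 (0.562) and slightly against Reg3b (-0.177).

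Genes with the most similar pattern over clusters of at least 50 cells were taken as the 2 highest Pearson correlations of log2(CPM + 1), over 17 clusters in Mettl14_cKO and 13 in the control that share their library. Reg3b and Reg3g were each other's closest gene in both libraries (0.945 and 0.969). For Gp2 the closest were Akr1c21 (0.904) and Nck1 (0.788) in Mettl14_cKO, and for Chit1 they were Fcgbp (0.903), a mucus protein of goblet cells, and Sel1l (0.847). For Lcn2 they were Cxcl2 (0.966), a neutrophil-attracting chemokine, and Arg2 (0.947) in Mettl14_cKO. Saa1 was closest to Sectm1b (0.870) and Wdr1 (0.848) in Mettl14_cKO and to Clic5 (0.902) and Cdkn2b (0.887) in the control, and Lrg1 to H2-Q10 (0.861) and Gk (0.839) in Mettl14_cKO. Dmbt1 was closest to Reg3b (0.912) and Net1 (0.9001) in Mettl14_cKO and to Nlrp6 (0.959) and Gsta4 (0.955) in the control. Lypd8 was closest to Sult1b1 (0.926) and Chp2 (0.919) in Mettl14_cKO and to Chmp2b (0.958) and Eif2s2 (0.956) in the control. Pigr was closest to Muc3a (0.947) and Creb3l1 (0.933) in Mettl14_cKO and to Sh2d4a (0.958) and Klf5 (0.957) in the control. Lcn2, Lrg1, Gp2 and Chit1 were under 50 CPM in each control cluster and were given no such gene there.

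Other antimicrobial genes were summarised over a list of 29 genes, 28 of them in the matrices. In colonocyte-like cells 17 passed the filter, of which 11 were at least 2-fold higher in Mettl14_cKO and 1 lower, with a median log2 ratio of 1.96 beside -0.12 over all genes. Over all genes tested in that class 9.4% were higher and 8.44% lower. S100a8 and S100a9, which also stand on the neutrophil list, were among those 11. In cycling-like cells 15 passed, with 6 higher and 5 lower (6.55% and 4.87% of all genes). In goblet-like cells 13 passed, with 3 higher and 2 lower (5.99% and 6.13%), and in enteroendocrine-like cells 12 passed, with 3 higher and 4 lower (12.2% and 7.35%). In this list and those below, a gene at or near 0 in the control, such as Slpi in colonocyte-like cells, passed the filter through Mettl14_cKO alone. Slpi, a secreted inhibitor of serine proteases, had 481 and 0.506 CPM in Mettl14_cKO and control colonocyte-like cells, 1607 and 33.6 CPM in goblet-like cells, and 119 and 1.39 CPM in T or NK-like cells. Reg4, a secreted lectin of deep crypt secretory cells, was lower, with 74.0 and 446 CPM in cycling-like and 461 and 919 CPM in goblet-like cells. Ang4, a bactericidal ribonuclease, had 8.26 and 34.8 CPM in goblet-like cells.

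Few acute-phase genes other than Saa1 and Lrg1 passed the filter: of 21 on the list, 3 passed in colonocyte-like cells, with 3 higher and 0 lower in Mettl14_cKO (9.4% and 8.44% of all genes). Among them Saa3 had 50.7 and 16.1 CPM and Il1rn, which encodes the interleukin-1 receptor antagonist, had 158 and 13.3 CPM. Genes of the interleukin-22, interleukin-6 and STAT3 axis, 19 on the list, lay mostly between the 2-fold limits: 1 of 13 was higher and 0 lower in cycling-like cells (6.55% and 4.87% of all genes), 1 and 3 of 13 in goblet-like cells (5.99% and 6.13%), 3 and 0 of 13 in colonocyte-like cells (9.4% and 8.44%) and 1 and 2 of 14 in enteroendocrine-like cells (12.2% and 7.35%). The counts of 1 higher gene are near the share of all genes. The higher ones in colonocyte-like cells included Muc1, a membrane mucin (39.4 and 1.60 CPM), and Osmr, a receptor for oncostatin M (16.2 and 0.273 CPM). Il18 had 100 and 191 CPM in colonocyte-like and 4.10 and 20.2 CPM in goblet-like cells.

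Genes of the interleukin-17, TNF and NF-kB axis, 23 on the list, had medians of different sign between classes. In colonocyte-like cells 7 of 21 were higher in Mettl14_cKO and 0 lower (9.4% and 8.44% of all genes), with a median log2 ratio of 0.44 beside -0.12 over all genes. In goblet-like cells 2 of 20 were higher and 5 lower (5.99% and 6.13%), with a median of -0.47 beside -0.08. Ccl20, a chemokine that attracts CCR6-bearing lymphocytes, had 259 and 21.5 CPM in cycling-like and 283 and 11.4 CPM in colonocyte-like cells. Cxcl5, a neutrophil-attracting chemokine, had 46.1 and 0.117 CPM in colonocyte-like cells. In goblet-like cells Cxcl2 had 23.4 and 297 CPM, Cxcl1 32.7 and 108 CPM and Tnfaip3, an inhibitor of NF-kB signalling, 15.9 and 56.5 CPM. Of 14 cytokine ligands Tnf alone passed outside enteroendocrine-like cells, with 49.2 and 121 CPM in cycling-like and 35.6 and 171 CPM in goblet-like cells. Of the 9 genes on the polymeric immunoglobulin list, 2 passed in each class: Ccl25 and Ccl28, chemokines for plasma cells and lymphocytes, had 98.6 and 13.4 CPM and 5.78 and 21.5 CPM in cycling-like cells. Among 12 chitinase and GPI-anchored genes, 5 passed in colonocyte-like cells with 2 higher and 1 lower (9.4% and 8.44% of all genes). The higher ones were Ly6g, at 1228 and 1.91 CPM, and Ly6d, at 268 and 0.389 CPM, which passed through Mettl14_cKO alone.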

How the data were processed

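For each genotype the authors deposited a matrix of raw UMI counts by gene and barcode. Its header names Cell Ranger 3.1.0, per the file headers, while 3.0.0 stands beside Seurat 3 among the tools, per the submitters' processing notes. The sources used here do not name the genome build, the annotation or the transcript end that was read. Of the 31053 genes, 99.6% had their Ensembl ID in GENCODE M21, used for positions. The libraries held 89729527 (Mettl14_cKO) and 111239295 UMIs (control) in 9225 and 10181 barcodes, of which 33 barcode sequences were shared.

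A minimum of 500 genes and a limit of 25% on mitochondrial UMIs removed 22.8% and 10.1% of barcodes. Scrublet marked 0 cells in both libraries with its automatic threshold, so a score of 0.25, set after the data were seen, removed 47 and 71 cells. Both libraries were clustered together without integration (2000 variable genes, 30 components, 15 neighbours, Leiden resolution 1), with the 10 genes and the related lists left out of the variable genes unless they were cell type markers. A cluster was named from fixed markers of 13 classes where at least 3 were among its 50 leading genes; these naming rules were set after the data were seen. A difference from the study's own cell types may come from these rebuilt names.

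UMI counts were summed per class and library and scaled to CPM, with exact Poisson intervals. Ratios have exact conditional binomial intervals, and shares exact binomial ones. A share of 0 in the text has a limit of 3 counts, and an "at least" ratio sets a control of 0 UMIs to 3 counts. Log2 ratios are of CPM + 1. Cells and UMIs are not replicates, so genotypes were compared without a test. The genes and lists were chosen with earlier results of these data known. From each of the 7 lists, the 3 genes with the highest and the 3 with the lowest mean log2 ratio could be named; S100a8 and S100a9 were named after their values were seen. The summing and thinning were tested on simulated data. Levels are not compared between genes. Software was Python 3.11.15, scanpy 1.11.5, anndata 0.12.19, scikit-learn 1.9.0, numpy 2.4.6, scipy 1.17.1, pandas 2.3.3, matplotlib 3.10.9, leidenalg 0.10.2 and igraph 0.11.9.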

Additional observations from a re-analysis of the deposited data

Results flagged for a closer look

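Reg3b differed in direction between classes of the same 2 libraries. Its log2 ratio, Mettl14_cKO over control, was 2.25 in cycling-like and 2.84 in goblet-like cells and -1.29 in enteroendocrine-like cells. This difference between classes was not tested, since each class has 1 library per genotype. T or NK-like cells had 124 CPM of Reg3b in Mettl14_cKO and 368 CPM in the control, the same direction as enteroendocrine-like cells, and their part in the difference was not tested.

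The barcodes removed by the cell filter, which enter no comparison, held Lcn2 at 96.2 CPM in Mettl14_cKO and 0.845 CPM in the control, Lrg1 at 40.3 and 2.96 CPM, and Gp2 at 33.3 and 0 CPM. These values are above those of the control barcodes that were removed in the same way.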

How the results depend on the processing

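Each of 40 log2 ratios, 10 genes in 4 classes, was recomputed under 13 other settings, 2 of which (leaving out shallow clusters, and control-majority clusters only) were chosen after seeing the data. The sign of a called value changed in 5 cases. Reg3b in enteroendocrine-like cells was 0.25 with no doublets removed. Dmbt1 in cycling-like cells was 0.25 with the genes kept among the variable genes and 0.37 in control-majority clusters, where Saa1 in goblet-like cells was -1.78 and Pigr in colonocyte-like cells 0.10. Ranges over the settings were 1.47 to 3.30 for Reg3b and 1.54 to 2.57 for Reg3g in cycling-like cells, 2.40 to 4.71 for Reg3g, 1.99 to 6.03 for Lrg1, 2.29 to 6.79 for Gp2, 3.23 to 6.38 for Chit1 and -1.84 to -1.12 for Lypd8 in goblet-like cells, and 1.45 to 3.99 for Saa1 in colonocyte-like cells. In colonocyte-like cells Reg3b ran from -0.50 to 2.57 and Reg3g from -0.80 to 1.39. The median over all genes in that class was -0.12, and it was -0.27 with the T or NK-like level subtracted and 0.13 at resolution 0.5.

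A counted gene had to pass the 5 CPM filter as well as 2-fold, and the counts moved as follows; where no cause is given, it was not tested. The 2 lower genes in cycling-like cells were 0 with the genes kept among the variable genes and 0 in control-majority clusters. The 1 lower gene in goblet-like cells was 2 under the lenient and strict cell filters, with no doublets removed, at both other resolutions and at 1.5-fold. The 4 higher genes in colonocyte-like cells were 2 under both other cell filters, at resolution 0.5 and with the genes kept among the variable genes, since Gp2 and Chit1 no longer passed the filter there, with log2 ratios still at 2.58 or more. The 1 lower gene there was 3 under the lenient filter and with the genes kept, 2 at resolution 0.5 and at 1.5-fold, and 0 in control-majority clusters. The 2 higher genes in enteroendocrine-like cells were 1 under the strict filter, with no doublets removed, with the genes kept, with median-of-ratios scaling, with the T or NK-like level subtracted, after thinning and without clusters under 5000 UMIs, and 0 with the mean of each cell's CPM; Lrg1, Chit1 or both then missed the filter, with log2 ratios of 1.89 or more, and the 1 gene after thinning was Pigr (1.07). Control-majority clusters gave no enteroendocrine-like value.

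No paired analysis was possible because each genotype has 1 library. Levels under 1 CPM rest on few UMIs, and Lcn2 in epithelial-like cells, Chit1 in control cells and Lrg1 in control enteroendocrine-like cells are limited by depth.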
